A study of Mus musculus with 26 samples.

Results

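The genes described here encode the proteins of the cytosolic ribosome. They were chosen by symbol: protein-coding genes named Rpl or Rps with a number, the stalk genes Rplp0, Rplp1 and Rplp2, and Rpsa. Kinases named Rps6k and pseudogenes were left out. The rule gave 83 of the 55401 genes in the count table, of which 51 encode large-subunit proteins and 32 small-subunit proteins. Among them are 6 paralogs of a canonical gene (Rpl3l, Rpl7l1, Rpl10l, Rpl22l1, Rpl39l and Rps27l). A count was present in at least 1 library for 82 of the genes, and Rpl24 had none in any library.

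RNA-seq counts came from 26 libraries of mouse eggs and 1-cell embryos in 2 numbered series. All embryos came from in vitro fertilisation of B6D2F1 oocytes, taken from superovulated females aged 8 weeks, with B6D2F1 sperm, and the labels give all of them an age of 10 h. The first series held 7 libraries of control embryos and 7 of embryos cultured for 10 h with 10058-F4 from 2 h after insemination. This compound keeps the transcription factor c-Myc from binding its partner Max. Its dose was not given in the labels used here. The second series held 4 libraries of unfertilised B6D2F1 oocytes at the second meiotic metaphase (MII oocytes, 0 h), 4 of control embryos, and 4 of embryos kept for 10 h in 100 µg/ml alpha-amanitin from 1 h after insemination. Alpha-amanitin, from death cap mushrooms, inhibits RNA polymerase II. The comparisons ask how these mRNAs differ between egg and embryo and how either inhibitor alters them. The number of cells per library is not stated outright and no label names separate donors, so n counts libraries, and the spread that p-values measure is that between libraries, which may be technical.

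Each ribosome holds one copy of nearly every ribosomal protein, and growing oocytes build a large store of ribosomes and of the mRNAs that encode them. Most of these mRNAs begin with a run of pyrimidines, the 5′ terminal oligopyrimidine (TOP) motif, through which the kinase mTOR and the RNA-binding protein Larp1 control their translation. Ribosomal protein genes are also among the textbook targets of c-Myc, which binds the E-box CACGTG. After meiosis resumes, mouse oocytes degrade much of their maternal mRNA, and the embryo begins to transcribe its own genome in the 1-cell stage.

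RefSeq start sites (build GRCm38.p6) were found for 63 of the 83 genes, with 75 starts in all. The windows below span 15 bases on either side of the start, on the gene's own strand. They are shown because the genes are among those with the lowest p in a contrast and because they differ in the TOP-like feature. Capitals mark the longest run of C and T. Rpl35 and Rpl28 have long runs, Rpl19 has one at its second start, and the longest in Rpl41 is 3 bases.

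Rpl35, chr2:39005117-39005146, minus strand: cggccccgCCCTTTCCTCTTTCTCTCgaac
Rpl28, chr7:4792950-4792979, plus strand: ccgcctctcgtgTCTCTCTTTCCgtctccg
Rpl19, second start, chr11:98026909-98026938, plus strand: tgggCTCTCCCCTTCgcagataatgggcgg
Rplp0, chr5:115559452-115559481, plus strand: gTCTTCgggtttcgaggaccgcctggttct
Rpl41, chr10:128549154-128549183, minus strand: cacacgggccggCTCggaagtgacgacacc
Rps21, first start, chr2:180257364-180257393, plus strand: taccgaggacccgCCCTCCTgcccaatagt

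A run of at least 6 pyrimidines lay within 15 bases of the start at 39 of the 75 starts (52%), against 29.2% of all 32851 starts in the table. Runs of at least 10, a length chosen after the values were seen, were at 20 starts (26.7%), against 5.34% of all starts. The E-box CACGTG, searched on both strands from 250 bases before to 50 after the start, was present at 8 starts of 6 genes (10.7%), against 7.15% of all starts. Both Rpl19 starts hold it. The ETS core CCGGAAG, searched in the same window and on both strands, was present at 27 starts (36%), against 8.86% of all starts. Pyrimidine runs and the ETS core were thus more frequent at these starts than over the table, and the E-box share was near that of the table. A match describes letters in the window only.

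Library totals were 20566278 to 27266040 counts in the first series and 5371602 to 31540627 in the second, where the shallowest and the deepest library were both alpha-amanitin libraries. All 12 oocyte markers were detected in every group. Their summed level was 9358 to 10006 CPM (counts scaled by the total of their library) in MII oocytes, 5110 to 6489 in the control embryos beside them, 5709 to 7908 in alpha-amanitin embryos, 4904 to 7220 in the first-series controls and 7744 to 9678 with 10058-F4. The 12 cumulus and granulosa markers summed to 84.3 to 173 CPM in the libraries, mostly from Nr5a2, and sperm markers to at most 28.2 CPM with Tnp1, Tnp2 and Smcp at 0. Of the blood markers, the globins and Lyz2 were at 0 and Ptprc reached 4.95 CPM in 1 alpha-amanitin library.

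The ribosomal protein genes together took a small share of the counts. In MII oocytes the share was 0.215%, 0.233%, 0.208% and 0.275% of counts in the 4 libraries (mean 0.233% ± 0.0302, SD, n = 4). In the control embryos of the same series it was 0.121%, 0.114%, 0.148% and 0.134% (0.129% ± 0.0150, SD, n = 4). Every control embryo library lay below every oocyte library, and the mean share was 0.556 times that of oocytes. Alpha-amanitin embryos held 0.186%, 0.174%, 0.127% and 0.164% (0.163% ± 0.0254, SD, n = 4), below all oocyte libraries and overlapping the controls. These are shares of a library's counts, so less RNA of these genes and more RNA of other genes cannot be told apart. In the first series the controls ranged from 0.155% to 0.237% (median 0.213%, n = 7), and the 10058-F4 embryos from 0.202% to 0.262% (median 0.230%, n = 7), with overlap. Control embryos of the 2 series did not overlap, although the labels describe the same cells and age, so levels are compared within a series.

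**Figure D1:**
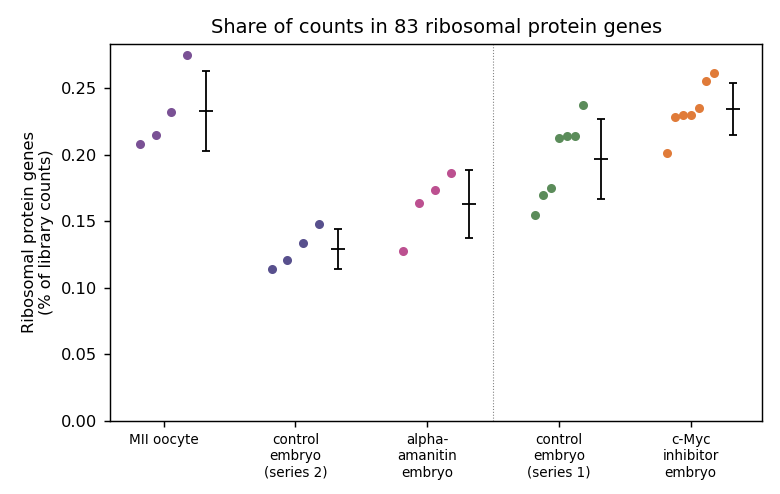
Share of each library's counts in the 83 ribosomal protein genes (percent, vertical axis) for the 5 groups. Points are libraries, the black bar is the mean with its SD, and the dotted line parts the second series (left) from the first. The 4 control embryo libraries of the second series, 0.114% to 0.148%, all lie below the 4 oocyte libraries, 0.208% to 0.275%.

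Genes were ranked by level per length, the count per kilobase of exon scaled to the same sum over all genes in each library. Exon length was that of all annotated exons of a gene merged, which can exceed its principal mRNA. Rpl17, a protein near the exit tunnel of the large subunit, was highest in every group, at 472 ± 47.6 (SD, n = 4) in oocytes and 433 ± 168 in their control embryos. Rpl4, also a tunnel protein, was second, at 282 ± 55.9 in oocytes, and its SD range did not reach that of Rpl17 there. Next in oocytes came Rplp1 at 239 ± 101, Rpl32 at 212 ± 80.6 and Rpl36 at 198 ± 44.1. The SD ranges of Rpl4 and these 3 genes overlapped. The lowest members with any count in oocytes were Rps3 at 3.46 ± 3.59, Rpl10a at 2.82 ± 2.23, Rpl22l1 at 2.51 ± 2.26, Rps19 at 2.30 ± 0.571 and Rpl9 at 1.33 ± 2.66, all per-length levels. Rpl9 had counts in 1 of 4 oocyte libraries. The median member stood at 28.5 on this scale. Per-length levels from Rpl17 to Rps19, whose proteins are each present once per ribosome, thus spanned more than 2 powers of 10. Merged exons exceeded the mRNA in all the lowest members listed, as in Rps19 (4685 against 774 bases) and Rpl9 (3081 against 738). They were close to it in Rpl17 (1327 against 1326) and Rplp1 (499 against 499), less so in Rpl4 (2007 against 1538). The part of exon length in the order and in the span was not tested.

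Many of these genes have processed pseudogenes, and sequence shared with them bears on what can be counted. For the median member, 49.4% of the 50-base stretches of its principal mRNA also occur in a transcript of another gene, with a range from 0% to 98.6%. The treatment of reads that match several places was not stated, so members with much shared sequence are uncertain. Rpl24, which had no count, shares 81.7% of its stretches with transcripts of 10 other genes, 8 of them pseudogenes, and 47.0% of its exon bases lie in exons of Gm28037 on the same strand. Across the 83 genes, the per-length level in oocytes and the shared percentage had a Spearman rho of -0.02. The 41 genes with over 50% shared had a median level of 24.96, and the other 42 had 28.9. These are descriptions across genes, which share the same libraries and are not independent replicates. Rpl and Rps pseudogene rows held 0.00525% to 0.0164% of the counts of a library.

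**Figure D2:**
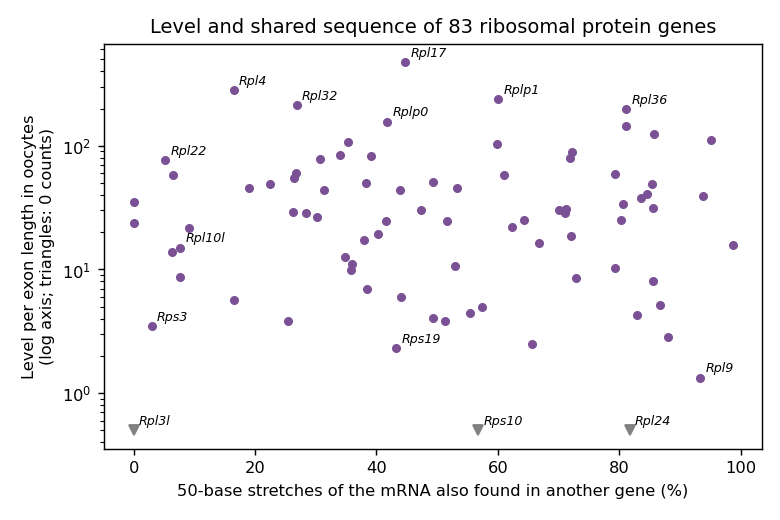
Mean level per exon length in the 4 oocyte libraries (vertical, log axis) against the percentage of 50-base stretches of the mRNA found in another gene's transcript (horizontal), 1 point per gene. Grey triangles are genes with no count in oocytes. Rpl17, with 44.7% shared, is highest, and Rpl9, with 93.3% shared, is the lowest with a count.

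Control embryos were set against oocytes to ask which of these mRNAs differ after fertilisation. In edgeR's quasi-likelihood test with Benjamini-Hochberg adjustment over 13133 genes, 78 members were tested. Of them 2 fell, Rps21 and Rpl32, and none rose. The share of members called lower was 2.56%, near the 1.78% of all genes tested, and 1.11% of all genes were called higher. The count of members called lower depended on the fit: it was 10 with DESeq2 (12.8%, against 5.11% of all genes), 19 in 1 fit of all 5 groups (24.1%, against 5.13%) and 4 with no filter on low counts (5%, against 1.06%). The direction was more uniform: 69 of 78 members had a fitted change below 0, against 51.5% of all genes, and the median log2 fold change was -1.34, against -0.03 over all genes. Ranges did not overlap, with embryos lower, for 28 members (35.9%), against 10.1% of all genes, and for 0 members with embryos higher, against 4.42%. At an unadjusted p under 0.05, 15 members were lower (19.2%, against 8.5% of all genes) and 0 higher (against 5.56%). Among the 24 members with a mean of at least 20 CPM, 21 were below 0 and the median was -0.57, against 0.03 for all genes at that level.

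Rps21 is a protein of the small subunit. It had 7.18, 21.0, 14.2 and 20.1 CPM in the oocyte libraries (15.6 ± 6.39, SD, n = 4) and no count in any of the 4 control embryo libraries. Taking 3 counts over the whole group as the floor, 0.0399 CPM, its level was at least 391.6-fold lower (adjusted p = 0.0228, edgeR). That bound covers counting error only and not the spread between libraries. Of the values of tested members in these controls, 21.2% were 0. Alpha-amanitin embryos had 1.59, 0.307, 0 and 0 CPM, all below oocytes. The first series has no oocyte libraries, and there Rps21 ranged from 0 to 3.05 CPM in controls (median 0.713) and from 0.421 to 8.15 CPM with 10058-F4 (median 2.92).

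Rpl32, a large-subunit protein, had 107, 55.3, 73.6 and 47.9 CPM in oocytes and 21.97, 19.6, 21.5 and 34.3 CPM in control embryos. The groups did not overlap, and the log2 fold change was -1.50 (SE 0.39, adjusted p = 0.0400, edgeR). In alpha-amanitin embryos Rpl32 was at 55.2, 50.8, 38.2 and 41.2 CPM, above every control and overlapping the oocytes. Without the filter on low counts Rpl32 was not called (adjusted p = 0.108). Leaving out any 1 of the oocyte libraries ended both calls, and leaving out 3 of the control libraries in turn also ended each call (controls 2, 3 and 4 for Rps21, and controls 1, 2 and 3 for Rpl32). Leaving out alpha-amanitin library 1 or 2, which share the estimate of spread, ended that of Rpl32. Adjusted p in the fits that lost a call was 0.0522 to 0.0840 for Rps21 and 0.0622 to 0.256 for Rpl32.

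The stalk of the large subunit recruits the translation factors that hydrolyse GTP. Its base, Rplp0, had 87.1, 95.8, 68.8 and 117 CPM in oocytes and 28.4, 19.3, 53.3 and 19.2 CPM in control embryos, without overlap (log2 fold change -1.58, SE 0.45, adjusted p = 0.0674, edgeR). Rplp1 had 23.1, 58.9, 36.5 and 47.1 CPM in oocytes and 0, 3.31, 10.3 and 0 CPM in control embryos, also without overlap (log2 -3.57, SE 1.30, adjusted p = 0.175). Rplp2, the partner of Rplp1 in the stalk, overlapped, with 57.8 ± 15.1 CPM in oocytes and 46.1 ± 19.3 in control embryos (SD, n = 4 each). None of the 3 stalk genes passed the test. Rplp0 was called lower with no filter, by DESeq2 and in 1 fit of all 5 groups, and Rplp1 with no filter and in that 1 fit. Rpl22, an RNA-binding protein of the large subunit, went from 80.6 ± 34.7 to 19.1 ± 10.1 CPM without overlap (log2 -2.04, SE 0.58, adjusted p = 0.0680).

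Rpl5 and Rpl11 form, with 5S rRNA, a particle that also binds Mdm2, the ligase that degrades p53. Rpl5 had 51.3, 46.6, 66.9 and 47.8 CPM in oocytes and 23.0, 18.6, 2.92 and 1.73 CPM in control embryos, without overlap (log2 -2.16, SE 0.79, adjusted p = 0.179, edgeR). Rpl11 had 20.2 ± 7.01 CPM in oocytes and 26.4 ± 8.38 in control embryos (log2 0.43, SE 0.90, adjusted p = 0.977). The 2 partners had fitted changes of opposite sign, neither past the test. Rps6, the substrate of the S6 kinases, was at 22.6 ± 6.94 CPM in oocytes and 17.3 ± 11.0 in control embryos, and Rpsa, which lies at the mRNA exit side, at 6.81 ± 2.05 and 0.984 ± 1.62 CPM. Rps4x, the X-linked small-subunit gene, had 52.1 ± 11.7 CPM in oocytes and 30.3 ± 11.0 in control embryos, without overlap (log2 -0.74, SE 0.53). Rpl17 and Rpl4, the highest members, overlapped between oocytes and control embryos, with log2 changes of -0.11 (SE 0.26) and -0.31 (SE 0.26).

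Missing counts moved with these values. Among tested members, 21.2% of the values in control embryos and 20.5% in alpha-amanitin embryos of the second series were 0, against 0.641% in oocytes and 0.916% and 1.10% in the controls and 10058-F4 embryos of the first series. Over all genes tested, the shares of zeros were 17.1%, 17.0%, 6.46%, 3.101% and 3.05% in the same order. Members with a count numbered 78 or 79 in the oocyte libraries and 54 to 68 in the control embryos. The summed oocyte markers, given above, were also lower in every control and alpha-amanitin embryo library than in any oocyte library. The single markers did not all move that way. Means in oocytes and control embryos were 2126 and 320 CPM for Gdf9 and 1294 and 344 for H1foo. They were higher in control embryos for Npm2 (674 and 856), Dppa3 (637 and 827) and Ooep (469 and 479). With alpha-amanitin these genes, Bmp15 and Nlrp5 had means above those of oocytes. The part of zeros and of these markers in the lower values of the second-series embryos was not tested.

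**Figure D3:**
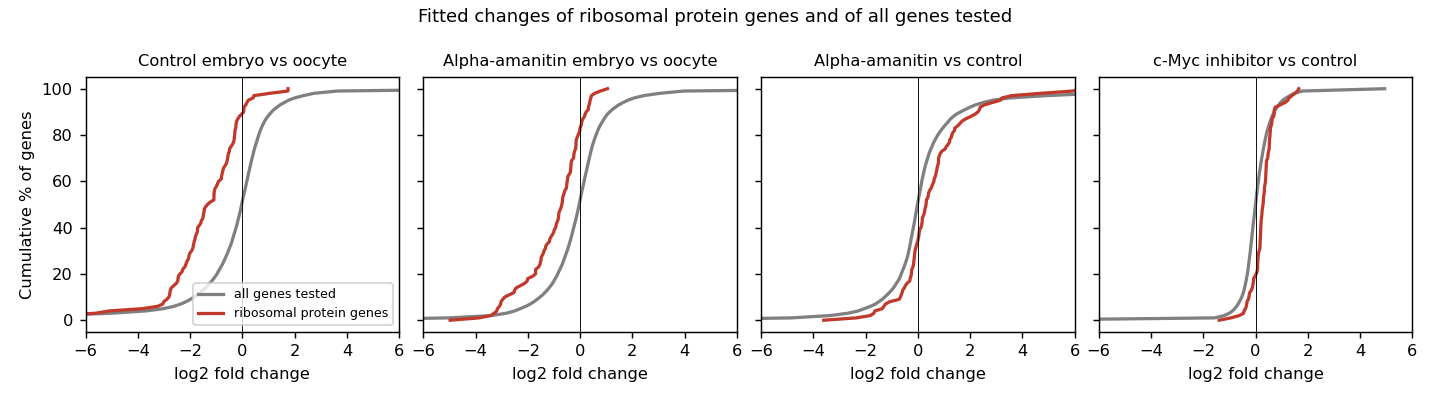
Cumulative percentage of genes (vertical) by fitted log2 fold change (horizontal) for 4 contrasts. The red line is the 78 tested ribosomal protein genes and the grey line all genes tested, and values past 6 on either side are off the axis. In control embryo against oocyte the median of the ribosomal protein genes is -1.34 and that of all genes -0.03, and with the c-Myc inhibitor the medians are 0.29 and 0.00.

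Alpha-amanitin embryos were compared with the same oocytes, so both contrasts share the oocyte libraries. None of the 78 members was called by edgeR in either direction, with 0.442% of all genes called higher and 1.27% lower. At an unadjusted p under 0.05, 3 members were lower (3.85%, against 5.96% of all genes) and 0 higher (against 4.6%), and DESeq2 called 5 lower (6.41%, against 2.8% of all genes). In 1 fit of all 5 groups 4 were called lower (5.06%, against 3.25%). Fitted changes were below 0 for 65 of 78 members, against 52% of all genes, and the median was -0.70, against -0.04 over all genes. Ranges did not overlap, embryos lower, for 17 members (21.8%), against 7.89% of all genes, and for 0 members with embryos higher, against 3.53%. The smallest p belonged to Rplp0, with 56.1, 37.0, 14.0 and 31.5 CPM in alpha-amanitin embryos, all below oocytes (log2 -1.41, SE 0.45, adjusted p = 0.145). Next came Rps21, given above, and Rps12, a small-subunit protein, at 3.26 ± 1.44 CPM against 26.9 ± 8.68 in oocytes (log2 -3.04, SE 1.25, adjusted p = 0.339). Rpl35, at the tunnel exit, was at 11.9 ± 11.3 CPM against 48.8 ± 13.5 (log2 -2.03, SE 1.02, adjusted p = 0.536), and Rpl5 at 18.3 ± 14.6 against 53.1 ± 9.36 (log2 -1.53, SE 0.78, adjusted p = 0.538).

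Alpha-amanitin embryos against their controls ask what blocking RNA polymerase II alters. No member was called by edgeR, with 0.0228% of all genes called higher and 0.00761% lower. At an unadjusted p under 0.05, 6 members were higher with alpha-amanitin (7.69%, against 4.71% of all genes) and 0 were lower (against 2.8%). DESeq2 called 1 member, Rps21, higher (1.28%, against 2.12% of all genes). The median log2 fold change was 0.31, against -0.01 over all genes, and 51 of 78 members were above 0, against 49.1% of all genes. Without alpha-amanitin library 1 the median of the members was 0.04, against -0.095 over all genes in that fit. Rpl32 was the single member whose ranges did not overlap, at 46.3 ± 7.98 CPM against 24.3 ± 6.71 (SD, n = 4 each, log2 0.88, SE 0.39, adjusted p = 0.585), and 1.62% of all genes had that pattern.

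The other members with the smallest p in that contrast were Rps21, Rps24, Rpl39 and Rpl30. Rps24, which acts in small-subunit rRNA processing, had 119, 89.4, 174 and 133 CPM with alpha-amanitin and 105, 51.9, 59.0 and 97.3 CPM in controls, with overlap (log2 0.68, SE 0.29, adjusted p = 0.563, edgeR). Rpl39, a short protein in the exit tunnel, had 1.30 CPM in 1 alpha-amanitin library and no count in the other 3 or in any control. Rpl30 had 17.9, 11.9, 40.4 and 3.43 CPM with alpha-amanitin and 0, 0.0509, 6.80 and 1.30 CPM in controls (log2 3.14, SE 1.44, adjusted p = 0.623). The spread between alpha-amanitin libraries was wide for Rpl30, and library 3, the shallowest, gave the highest value.

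The libraries of the c-Myc inhibitor series varied less, with a biological coefficient of variation of 0.555 against 1.12 in the second series. Of 78 members tested, 4 rose with 10058-F4 and none fell in edgeR's quasi-likelihood test with Benjamini-Hochberg adjustment over 13003 genes. The share called higher was 5.13%, near the 6.82% of all genes, and 4.08% of all genes were called lower. At an unadjusted p under 0.05, 23 members were higher (29.5%, against 12.2% of all genes) and 0 were lower (against 9.77%). Fitted changes were above 0 for 63 of 78 members, against 49.9% of all genes, and the median was 0.29, against 0.00. Among members with a mean of at least 20 CPM, 32 of 33 were above 0 with a median of 0.26, against 46.9% of all genes at that level and a median of -0.02. No member had ranges that did not overlap, a pattern that 2.73% of all genes had with the inhibitor higher and 1.32% with it lower. The changes were thus small, mostly of 1 sign, and within the range of the controls in part of the libraries. The summed oocyte markers, given above, were also higher with 10058-F4 in all 7 libraries than in any control. Means differed most for Gdf9 (415 CPM in controls, 1944 with 10058-F4) and H1foo (557 and 1740). They were lower with 10058-F4 for Bmp15 (1375 and 1206), Nlrp5 (1111 and 1017), Ooep (382 and 330) and Dppa3 (730 and 653). The part of these markers in the values of the members was not tested.

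All 4 called members belong to the large subunit, as do 48 of the 78 members tested. Rpl41, a very short basic protein at the interface of the subunits, ranged from 6.01 to 24.3 CPM in controls (median 9.12, n = 7) and from 13.4 to 33.8 CPM with 10058-F4 (median 29.6, n = 7). The overlap came from control library 8, at 24.3 CPM, while the other controls reached 12.8 CPM at most. The log2 fold change was 1.23 (SE 0.28, adjusted p = 0.00399, edgeR). Rplp0 ranged from 22.4 to 51.1 CPM in controls (median 37.2) and from 47.8 to 89.2 CPM with 10058-F4 (median 52.4), a log2 fold change of 0.76 (SE 0.19, adjusted p = 0.00795). Both calls were kept in all 14 fits that left out 1 library.

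Rpl19, a large-subunit protein that bridges to the small subunit, ranged from 15.1 to 41.0 CPM in controls (median 33.6) and from 24.6 to 59.4 CPM with 10058-F4 (median 48.6). Its log2 fold change was 0.71 (SE 0.21, adjusted p = 0.0260, edgeR). Rpl35 ranged from 18.9 to 52.6 CPM in controls (median 43.2) and from 47.5 to 76.5 CPM with 10058-F4 (median 58.1), a log2 fold change of 0.63 (SE 0.19, adjusted p = 0.0311). The Rpl19 call was lost without 10058-F4 library 3, 7 or 8 or control 6 or 7 (adjusted p 0.0515 to 0.0648), and that of Rpl35 without 10058-F4 library 4 or 7 or control 5 or 6 (adjusted p 0.0534 to 0.0705). The count of members called higher was 2 without control 6 or 10058-F4 library 7, 7 without 10058-F4 library 2 and 10 without control 8. Over all genes, 6.15%, 5.8%, 6.76% and 6.57% were called higher in those fits, in the same order. In 1 fit of all 5 groups, whose second series varies more, none of the 4 was called, where 1.63% of all genes were called higher. DESeq2 called 8 members higher (10%, against 6.93% of all genes), these 4 among them, and 1 lower (against 5.88%), Rps10, which had 1.07 ± 1.59 CPM in controls. Rpl28, the next by p, was at 17.7 ± 5.18 CPM in controls and 27.0 ± 7.41 with 10058-F4 (SD, n = 7 each, log2 0.63, SE 0.21, adjusted p = 0.0534).

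Shared sequence touches these genes unequally. Of the 50-base stretches of the mRNA, 43.9% are shared for Rpl41, 41.8% for Rplp0, 79.3% for Rpl19 and 95.1% for Rpl35, and 66.2% of Rpl35 exon bases lie opposite exons of Wdr38 and Arpc5l. Values for Rpl19 and Rpl35 are therefore the less certain. For members named in the second series, 26.4% of stretches are shared for Rps21, 26.8% for Rpl32 and 5.19% for Rpl22. Others named there share more, with 98.6% for Rps27, 93.8% for Rpl5, 83.6% for Rps12, 79.2% for Rpl30 and 60% for Rplp1. Their values are also the less certain. Rpl39, at 16.5%, and Rps24, at 19.1%, share less.

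**Figure D4:**
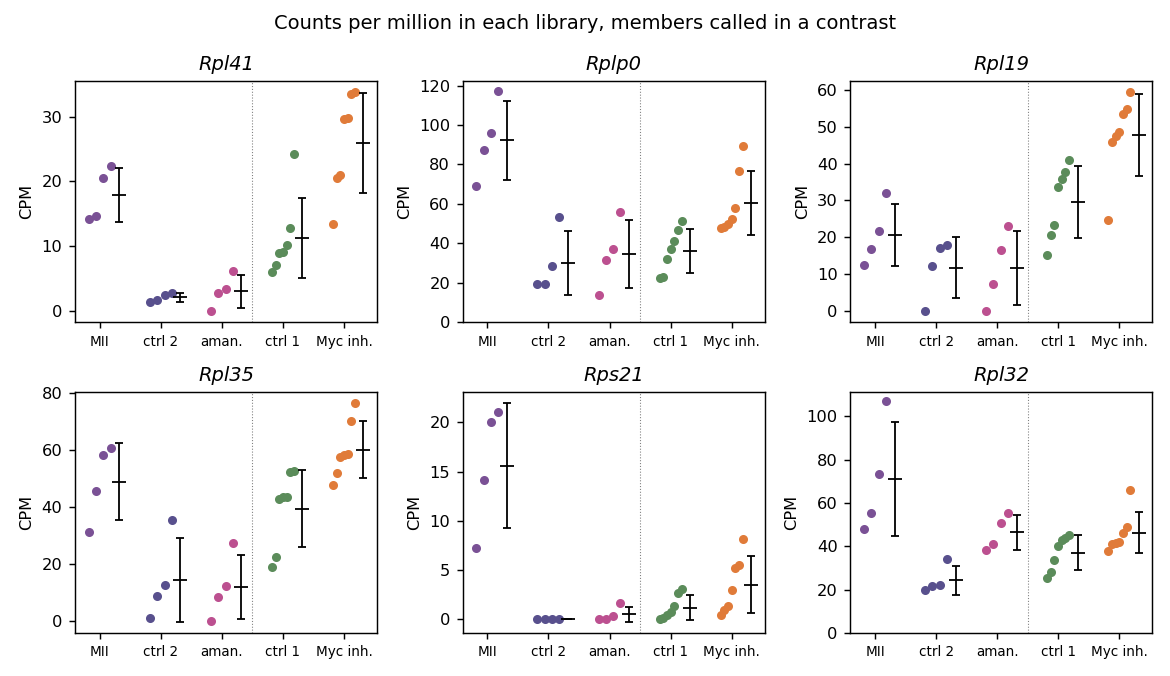
CPM in each library (vertical axis) for the 6 members called in a contrast. Groups are MII oocytes (MII), control embryos and alpha-amanitin embryos of the second series (ctrl 2, aman.), and control and c-Myc inhibitor embryos of the first (ctrl 1, Myc inh.), with mean and SD as black bars. Rps21 is at 0 in all 4 second-series controls. Within the first series, the median of Rpl41 is 29.6 CPM in the c-Myc inhibitor group and 9.12 CPM in controls, with overlap.

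By role, the 48 tested large-subunit members had a median log2 fold change of 0.34 with 10058-F4, and 4 rose. Over all genes tested 6.82% were called higher and 4.08% lower in that contrast. The 30 tested small-subunit members had a median of 0.20, and none was called. Of the 17 genes mutated in Diamond-Blackfan anaemia, a failure of red cell production, 15 were tested, with a median of 0.20 and none called. In control embryo against oocyte the medians were -1.48 for the large subunit and -1.06 for the small subunit. In each 1 member was called lower, against 1.78% of all genes tested. The subunits were not tested against each other.

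Paralogs can take the place of a canonical protein in particular tissues. Coding identity was 73.0% for Rpl3l and Rpl3, 50.1% for Rpl7l1 and Rpl7, 84.7% for Rpl10l and Rpl10, 66.9% for Rpl22l1 and Rpl22, 85.0% for Rpl39l and Rpl39, and 76.2% for Rps27l and Rps27. No paralog was called in any contrast. Rpl3l, known from striated muscle, had a count in 1 library only, a first-series control at 0.867 CPM. Rps27l, a p53 target, exceeded Rps27 per length in oocytes, at 49.0 ± 15.8 against 15.8 ± 26.3, where 1 oocyte library carried most of the Rps27 level. Rps27 had no count in the 8 embryo libraries of the second series, where Rps27l stood at 43.4 ± 22.1 in controls and 28.7 ± 19.9 with alpha-amanitin.

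Rpl39l, known from the testis, was at a per-length level of 35.3 ± 28.1 in oocytes against 5.61 ± 2.02 for Rpl39, and at 31.4 ± 34.6 in the control embryos, where Rpl39 had no count. In the first series the pair overlapped, with Rpl39l at 7.78 ± 5.35 in controls and 5.50 ± 2.82 with 10058-F4 and Rpl39 at 2.89 ± 3.14 and 7.34 ± 4.13. Rpl22 stood above Rpl22l1 in oocytes, at 76.6 ± 24.2 against 2.51 ± 2.26, and Rpl10 above Rpl10l, at 49.0 ± 26.4 against 14.9 ± 11.1. Rpl7 and Rpl7l1 were at 45.5 ± 12.5 and 21.5 ± 11.3 in oocytes and at 13.3 ± 13.2 and 22.7 ± 14.7 in the control embryos. Rpl7 ranges in CPM did not overlap between oocytes and control embryos (log2 -1.71, SE 0.68, adjusted p = 0.216, edgeR), and Rpl7l1 had a log2 change of 0.17 (SE 0.64). Per-length levels within a pair also depend on exon length, as merged exons and mRNA differ in length. These were 1434 and 612 bases for Rpl39 and 831 and 805 for Rpl39l. For Rps27 they were 1043 and 345, and for Rps27l 816 and 499. Shared 50-base stretches also differ within pairs, at 98.6% for Rps27 and 22.4% for Rps27l. They are 85.4% for Rpl10 and 7.6% for Rpl10l, and 5.19% for Rpl22 and 65.6% for Rpl22l1. For Rpl7 and Rpl7l1 they are 53.3% and 9.19%, and for Rpl39 and Rpl39l 16.5% and 0%. The part of shared sequence in these levels was not tested. Whether pairs differed in their change was not tested.

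**Figure D5:**
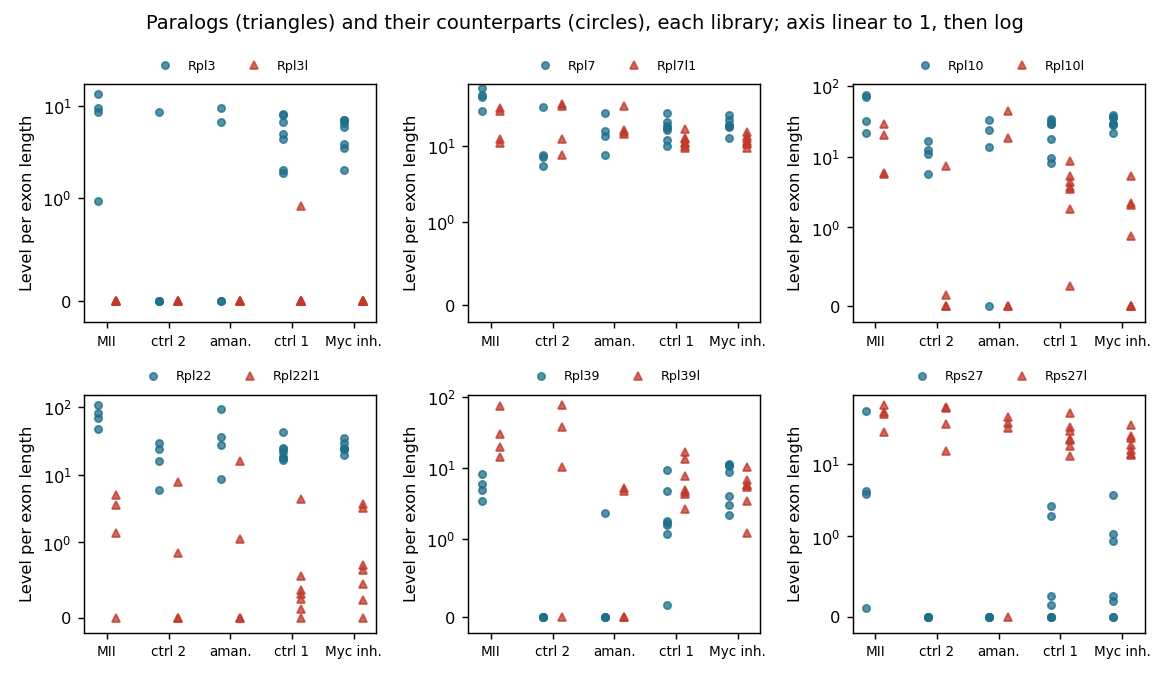
Level per exon length in each library for 6 paralogs (red triangles) and their canonical counterparts (blue circles), on an axis that is linear up to 1 and logarithmic above. Rps27l lies above Rps27 in nearly all libraries, and Rpl22 above Rpl22l1, with oocyte means of 76.6 and 2.51.

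Effects of the inhibitors were compared by a contrast of the differences, in 1 fit of the 22 embryo libraries. None of 79 members was called, with 0.678% of all genes called higher and 0.367% lower. At an unadjusted p under 0.05, 1 member was higher (against 6.77% of all genes) and 2 were lower (against 10.5%), and DESeq2 called 1 lower (against 5.32%), Rpl9, which had few counts. The median difference was -0.02, against -0.03 over all genes. The members with the smallest p were Rpl39, Rps16, Rps21, Rpl30 and Rpl31. Rps16 differed through 1 library, a second-series control at 118 CPM where the other 3 had 7.22, 1.64 and 9.62. Rpl31 was at 15.4 ± 12.2 CPM with alpha-amanitin and 2.87 ± 1.74 in its controls, and at 19.9 ± 5.82 with 10058-F4 and 13.7 ± 3.99 in its own (difference -1.83, SE 0.93, adjusted p = 0.313).

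Other genes of the pathway were read from the same fits. Of 18 tested readers and kinases of the TOP pathway, 4 rose with 10058-F4 and none fell, against 6.82% of all genes called higher and 4.08% lower. Among the 4 were Mtor (log2 0.98, SE 0.13, adjusted p = 6.37e-06, edgeR), Tsc2 (0.93, SE 0.23) and Tsc1 (0.35, SE 0.09), the last 2 being inhibitors of mTOR complex 1. Of 9 chaperones that escort single ribosomal proteins, Ltv1, which acts in small-subunit assembly, fell by 0.40 on the log2 scale (SE 0.10) and none rose. In the same contrast 4.08% of all genes were called lower. Of 76 tested mitochondrial ribosomal proteins, 4 rose, Mrpl54, Mrpl12 and Mrps25 among them, and 1 fell, with a median of 0.17; neither count exceeds the share over all genes. In control embryo against oocyte Mtor fell by 2.09 (SE 0.40, adjusted p = 0.00505) and Mrpl35 by 2.31 (SE 0.49, adjusted p = 0.0108), both on the log2 scale. Each was the only gene called in its list, of 19 and 74 tested, where 1.78% of all genes were called lower. No gene of these lists was called in the 2 alpha-amanitin contrasts or in the contrast of differences.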

How the data were processed

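Whole-number gene counts, not normalized, were deposited for 26 libraries made with a stranded total RNA kit for small inputs. The submitters' processing notes name cutadapt 1.7.1, STAR 2.5.0a and the genome GRCm38. Which program counted the reads, whether by strand, and how it treated reads with several matches were not given in the sources used here. Symbols came from GENCODE vM21 and matched 55141 of 55401 rows.

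Counts were tested in R 4.3.3 with edgeR 4.0.16 (quasi-likelihood F test, TMM scaling, filterByExpr with a minimum count of 10 and a minimum total of 15), with Benjamini-Hochberg adjustment over all genes tested at a threshold of 0.05. The first series (14 libraries) and the second (12) were fitted apart, and the contrast of differences in 1 fit of the embryo libraries. DESeq2 1.42.0 was an alternative. CPM used raw library totals. A count of 0 allows up to 3 counts, or 0.0951 to 0.558 CPM per library, for counting error only. Coding identity was computed with Biopython 1.88. The procedure was tested on simulated data.

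The genes, lists and tests were chosen with earlier results of these data known. Genes named were those called or, where fewer than 5 were called, the 5 with the smallest p in each contrast, the 5 highest and lowest per-length levels in oocytes, and paralog pairs, stalk, Rpsa, Rps6, Rpl5, Rpl11 and Rpl41. In the other lists, up to 3 called genes were named. Rpl24 and Rps10 were named after their values were seen.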

Additional observations from a re-analysis of the deposited data

Results flagged for a closer look

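Shares of counts and the CPM of the 6 called members were checked in 34 groups of libraries for a library far from the rest, and 4 stood apart, where chance gives about 1 in 20 groups. Rpl19 was low in 10058-F4 library 2, at 24.6 CPM, where the other 6 had 45.9 to 59.4. Rpl32 was high in 10058-F4 library 3, at 65.7 CPM, where the others had 37.8 to 49.1. Rpl32 was also high in control library 4 of the second series, at 34.3 CPM, where the others had 19.6 to 21.97. Rpl41 was high in control library 8 of the first series, at 24.3 CPM, where the others had 6.01 to 12.8.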

How the results depend on the processing

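Other scalings (RLE size factors, library totals) moved no count of called members and no median of them past the limits set. With no filter, 4 members were called lower in control embryo against oocyte (Rps21, Rplp0, Rplp1 and Rpl22, with Rpl32 lost), against 1.06% of all genes. The median of the members was then -1.44. DESeq2 called 8 members higher and 1 lower with 10058-F4, 1 higher with alpha-amanitin, 10 lower in control embryo and 5 in alpha-amanitin embryo against oocyte, and 1 lower in the contrast of differences, against 6.93%, 5.88%, 2.12%, 5.11%, 2.8% and 5.32% of all genes in the same order. In 1 fit of all 5 groups the calls were 0 higher with 10058-F4, and 19 and 4 lower in control and alpha-amanitin embryo against oocyte, against 1.63%, 5.13% and 3.25% of all genes. Deviations from group means showed no pairing by library number. Their correlations between same-numbered libraries were -0.04 to 0.07 in the first series and -0.03 to 0.04 in the second. These values cannot show whether same-numbered libraries were prepared together. With the replicate number as a block, 2 members were called with 10058-F4 (Rpl41 and Rplp0, with adjusted p of 0.140 for Rpl19 and 0.0849 for Rpl35) and 0 in control embryo against oocyte (0.0551 for Rps21 and 0.1002 for Rpl32). In those fits 5.39% of all genes were called higher with 10058-F4, and 1.62% lower in control embryo against oocyte. The medians against oocyte were then -1.65 for control and -1.23 for alpha-amanitin embryos, with -0.20 over all genes in both. Leaving out 1 library gave 2 to 10 members higher with 10058-F4 and 0 to 5 lower in control embryo against oocyte, where 5 came without alpha-amanitin library 3, and 0 to 1 lower in the contrast of differences. Of all genes, 5.74% to 6.76%, 1.04% to 3.06% and 0.16% to 0.671% were called in those fits, in the same order and direction. Medians of the members then ran from 0.044 to 0.46 for alpha-amanitin against control, from -1.41 to -0.995 for control embryo against oocyte, and from -0.23 to 0.17 for the contrast of differences, whose sign was not stable. Medians over all genes ran from -0.095 to 0.025, from -0.095 to -0.0064 and from -0.13 to 0.12 in the same order. Over members with a mean of at least 20 CPM, chosen after seeing the data, the medians against oocyte were -0.57 for control and -0.34 for alpha-amanitin embryos. Of the values of single named genes under all alternatives, 3629 kept their side of the threshold, 41 gained a call, 34 lost one and 0 changed sign while called. A count of 0 allows up to 0.558 CPM in alpha-amanitin library 3, the shallowest, where 41 members had a count. Fewer members were also detected at ordinary totals in part of the embryo libraries of the second series. Alpha-amanitin library 4 had 57 with 20401858 counts, against 80 in 10058-F4 library 4 with 21068680, and the second-series controls had 54 to 68. Oocyte libraries of the second series had 78 or 79, and alpha-amanitin library 2 had 75 with 19545589 counts.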
